A study of Arabidopsis thaliana with 24 samples.

Results

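The tropinone reductase-like gene cluster of Arabidopsis thaliana is a run of 9 neighbouring loci on chromosome 2, AT2G29290 to AT2G29370, annotated as short-chain dehydrogenases. A locus was counted as measured when the array annotation gave it a probe set that carries no other gene, and 8 of the 9 loci, out of 16552 such genes on the array, met this rule. Each of the 8 had 1 probe set of its own. The locus without one was SAG13 (AT2G29350), senescence-associated gene 13, which lies between AT2G29340 and AT2G29360, so the cluster was followed here with a gap at its best-known member. The loci were chosen by their response to low sulphate, that is by the -S minus nS differences of these same arrays. Their -S values are therefore given as a description with no p-value, and where members are counted by the study's thresholds the count says only how many values were that large, not that a test was passed.

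RNA from shoots and roots of the line OX7.5 and of WT plants was measured on Affymetrix Gene 1.1 ST arrays for Arabidopsis after 4 days of sulfur deficit (-S) or in sufficient sulfur (nS). The 8 groups were OX7.5 -S, OX7.5 nS, WT -S and WT nS in each organ, with 3 biological replicates and so 3 arrays per group, from plants 33 days old. WT is the ecotype Col-0, and OX7.5 is a single line in the same background that carries the NBR1 open reading frame, fused at its C-terminus to a TAP tag, under a constitutive promoter of cauliflower mosaic virus (CaMV). A label without any word on sulphate was taken to mean nS, the labels describe pots of soil where the methods describe hydroponic boxes, and the -S and the nS arrays carry separate runs of sample numbers, so a batch and the sulfur supply cannot be told apart.

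NBR1 is a cargo receptor of selective autophagy that binds both ubiquitinated proteins and the ATG8 proteins of the autophagosome. Tropinone reductases are short-chain dehydrogenases that, in plants of the nightshade family, reduce tropinone to one of its alcohols on the way to tropane alkaloids. Arabidopsis carries many close relatives of these enzymes, often side by side on the chromosome, and for most of them the natural substrate is not established. TRI (AT2G29330) is the member whose annotated name is tropinone reductase itself, and SAG13 is widely used as an early marker of leaf senescence.

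All levels given here are deposited probe-set signals on the log2 scale. The median of an array was 3.92 to 3.97 for shoots but 2.58 to 2.63 for roots, as after separate normalization, so levels were compared within an organ only and never between probe sets. The array median served as a rough guide to dim signals and is not a detection limit. Replicate arrays of a group correlated with r between 0.973 and 0.990. Of 13 root markers, 5 were measured, with means of 2.76 to 8.25 in roots (5 above the root median) and of 1.49 to 2.86 in shoots (0 above the shoot median), whereas 0 of 13 leaf markers had a probe set of their own. NBR1 had none either, so its overexpression could not be checked in these values. By RT-qPCR on the plant material of the arrays, the study reported a higher NBR1 transcript level in OX7.5 than in WT in both organs. Within groups, the standard deviation of the cluster members was 0.04 to 0.69 in shoots, with 0.02 to 0.52 in roots. Whether the probes of one of these related genes also bind RNA of another was not tested, and the annotated pseudogene AT2G29280 overlaps AT2G29290. In bulk RNA, fewer cells of a type and less RNA per cell cannot be told apart.

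In shoots, the run at the start of the cluster, AT2G29290, AT2G29300, AT2G29310 and AT2G29320, was lower in -S in both lines, by 2.71- to 3.70-fold in OX7.5 and by 3.13- to 6.85-fold in WT. TRI, the next gene, was lower by 1.64-fold in OX7.5 and 1.69-fold in WT. Beyond TRI the response differed between the genes, and AT2G29360 was lower by 1.31-fold in OX7.5 and by 2.32-fold in WT. No measured member was higher by the study's thresholds in either line. The arrays behind these values follow gene by gene.

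AT2G29310, a short-chain dehydrogenase gene in the middle of this run, had signals of 3.63, 3.06 and 3.64 in OX7.5 -S shoots, against 5.20, 4.93 and 5.12 in OX7.5 nS shoots. In WT it had 2.98, 2.94 and 2.43 in -S shoots, against 5.65, 5.36 and 5.67 in nS shoots. Every -S array lay below the median of the shoot arrays and every nS array above it. The log2 difference, -S minus nS, was -1.64 in OX7.5 and -2.78 in WT (standard error 0.21 in each). Counted from the lowest of all 16552 genes, these were rank 15 in OX7.5 shoots and rank 2 in WT shoots.

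Its neighbour AT2G29300 had 2.76, 2.72 and 2.52 in OX7.5 -S shoots, against 4.10, 4.65 and 4.92 in OX7.5 nS shoots. WT -S shoots had 2.43, 1.72 and 3.10, against 5.33, 4.46 and 5.04 in WT nS shoots. The -S and nS arrays did not overlap in either line, and the WT -S arrays were the most scattered of the 4 groups. The log2 differences were -1.89 in OX7.5 and -2.53 in WT (standard error 0.27), at rank 8 in OX7.5 shoots and rank 5 in WT shoots.

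AT2G29290, the first locus of the cluster, had 3.82, 3.67 and 3.68 in OX7.5 -S shoots, against 5.30, 4.88 and 5.30 in OX7.5 nS shoots. The WT arrays gave 3.62, 3.72 and 3.11 in -S, against 5.30, 5.12 and 5.59 in nS. Again all 6 nS arrays and none of the -S arrays exceeded the array median. The log2 differences were -1.44 in OX7.5 and -1.86 in WT (standard error 0.20), ranks 33 and 30.

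AT2G29320 had 3.02, 2.69 and 3.99 in OX7.5 -S shoots, against 4.73, 4.75 and 4.55 in OX7.5 nS shoots. In WT the arrays gave 3.15, 3.24 and 3.39 in -S, against 4.92, 4.52 and 5.27 in nS. OX7.5 -S replicate 3 stood above the other -S arrays and was still below every nS array. The log2 differences were -1.45 in OX7.5 and -1.64 in WT (standard error 0.24).

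**Figure D1:**
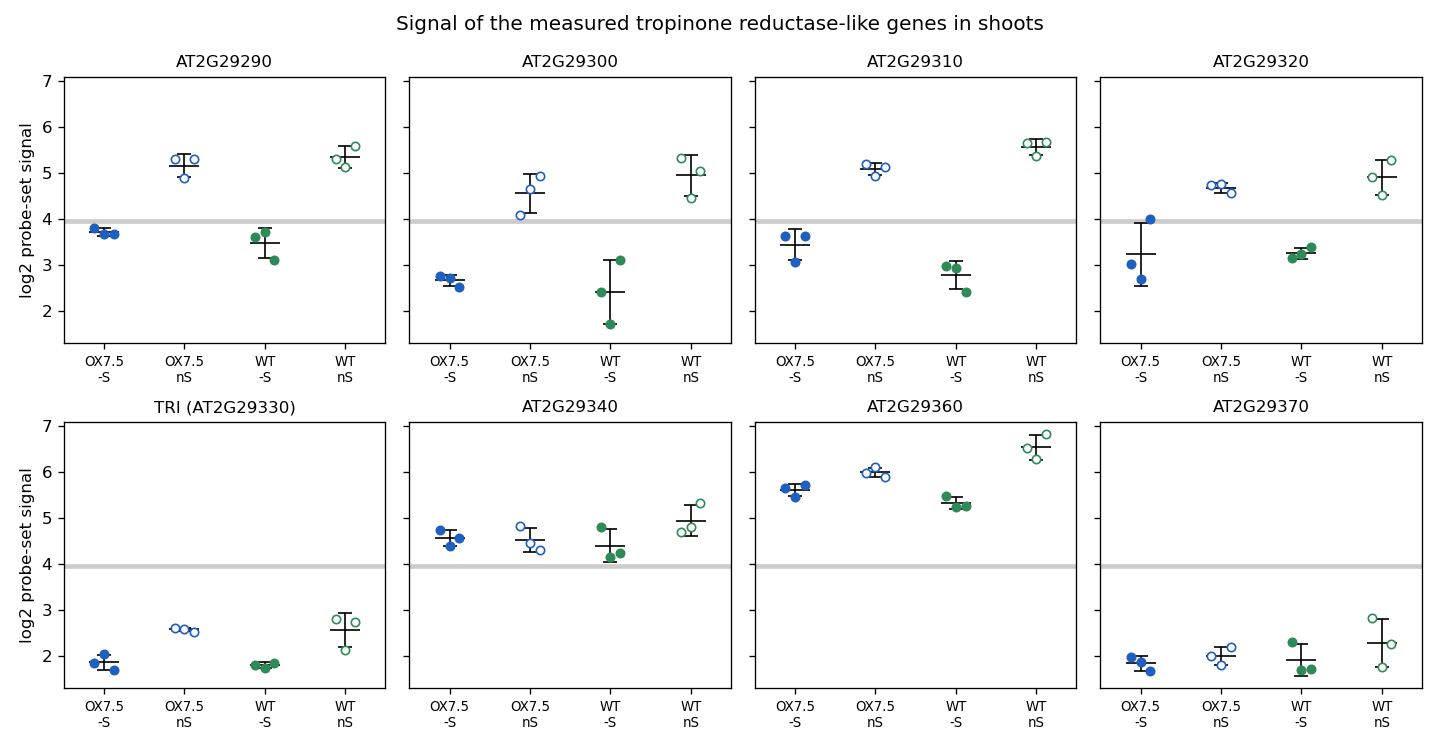
Log2 probe-set signal of the 8 measured genes in shoots, one panel per gene, for OX7.5 -S, OX7.5 nS, WT -S and WT nS. Points are arrays (3 per group), the long bar is the mean and the whiskers are 1 SD, and the grey band spans the medians of the 12 shoot arrays. In AT2G29290, AT2G29300 and AT2G29310 all nS arrays lie above the band and all -S arrays below it, while TRI and AT2G29370 stay below it throughout.

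TRI was dim in shoots, where 0 of 12 arrays exceeded the median. It had 1.86, 2.04 and 1.71 in OX7.5 -S shoots, against 2.61, 2.60 and 2.53 in OX7.5 nS shoots. In WT it had 1.81, 1.74 and 1.86 in -S shoots, against 2.81, 2.14 and 2.75 in nS shoots. The groups did not overlap in either line, and the log2 differences of -0.71 in OX7.5 and -0.76 in WT (standard error 0.15) were nearly the same size, although the size of a change this far down the scale is uncertain.

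AT2G29340 and AT2G29360, on either side of the unmeasured SAG13, were above the array median in 12 of 12 shoot arrays. AT2G29360 had 5.65, 5.45 and 5.71 in OX7.5 -S shoots, against 5.97, 6.10 and 5.89 in OX7.5 nS shoots, and 5.48, 5.24 and 5.26 in WT -S shoots, against 6.52, 6.27 and 6.81 in WT nS shoots. The -S arrays lay below the nS arrays in both lines, with log2 differences of -0.38 in OX7.5 and -1.21 in WT (standard error 0.19). AT2G29340 had 4.73, 4.39 and 4.56 in OX7.5 -S shoots, against 4.82, 4.46 and 4.31 in OX7.5 nS shoots, and 4.80, 4.15 and 4.24 in WT -S shoots, against 4.70, 4.81 and 5.32 in WT nS shoots. Its groups overlapped in both lines, with log2 differences of 0.03 in OX7.5 and -0.54 in WT (standard error 0.24).

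AT2G29370, the last locus, was dim in all 12 shoot arrays, with means between 1.84 and 2.29 over the 4 groups. Its log2 differences were -0.16 in OX7.5 and -0.38 in WT (standard error 0.22), with overlapping arrays. The first gene of the cluster thus had a wide gap between its -S and nS arrays in both lines, and the last gene had none in either.

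Counted by the study's thresholds for a -S DEG, a fold change of at least 1.5 with an unadjusted p under 0.05, 5 of the 8 measured members were lower in -S in OX7.5 shoots and 6 of 8 in WT shoots, AT2G29360 being the one added in WT. Over all genes, 6.10% were lower and 6.14% higher in OX7.5 shoots, and 9.79% lower and 8.91% higher in WT shoots. The -S arrays lay wholly below the nS arrays for the same 6 members in both lines, against 15.1% of all genes in OX7.5 shoots and 18.1% in WT shoots. The median log2 difference of the members was -1.07 in OX7.5 and -1.43 in WT, where the median of all genes was -0.0003 in OX7.5 shoots and -0.03 in WT shoots. Because these contrasts chose the loci, the shares are given for scale only. Other members crossed the thresholds in WT shoots only when 1 array was left out: AT2G29340 at -0.67 without WT nS replicate 1, -0.61 without WT nS replicate 2 and -0.75 without WT -S replicate 1, and AT2G29370 at -0.64 without WT nS replicate 2.

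In roots the cluster looked different. TRI was the only member above the root array median in all 12 root arrays, and AT2G29340 exceeded it in 2 of 12 and the other 6 in 0 of 12. TRI had 5.07, 5.02 and 4.72 in OX7.5 -S roots, against 5.26, 5.05 and 4.88 in OX7.5 nS roots, and 4.85, 4.95 and 4.99 in WT -S roots, against 4.72, 4.84 and 4.86 in WT nS roots. Its arrays stayed within a narrow range, with log2 differences of -0.13 in OX7.5 and 0.12 in WT (standard error 0.15).

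AT2G29290 had 1.26, 1.63 and 1.16 in OX7.5 -S roots, against 1.84, 2.56 and 1.69 in OX7.5 nS roots, and 1.20, 1.28 and 1.33 in WT -S roots, against 1.79, 1.67 and 1.34 in WT nS roots. The -S arrays were below the nS arrays in both lines, narrowly so in WT. The log2 differences were -0.68 in OX7.5 and -0.33 in WT (standard error 0.20). Leaving out nS replicate 2 of OX7.5 gave -0.42 for OX7.5, leaving out -S replicate 3 gave -0.58, and both values missed the thresholds.

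AT2G29340 had 1.79, 1.96 and 1.71 in OX7.5 -S roots, against 2.88, 2.15 and 1.89 in OX7.5 nS roots, and 1.23, 1.95 and 1.63 in WT -S roots, against 2.66, 1.86 and 2.26 in WT nS roots. The groups overlapped in both lines. The log2 differences were -0.48 in OX7.5 and -0.65 in WT (standard error 0.24). The OX7.5 value of AT2G29340 was -0.69 and passed the thresholds without OX7.5 nS replicate 3. The WT value was -0.47 without WT -S replicate 1 and -0.45 without WT nS replicate 1, both short of the thresholds.

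AT2G29320 had log2 differences of -0.34 in OX7.5 roots and -0.57 in WT roots (standard error 0.24), the WT value just under the fold threshold. The AT2G29320 value in WT roots passed at -0.61 without WT -S replicate 1, at -0.59 without WT -S replicate 3 and at -0.73 without WT nS replicate 3. For AT2G29300, AT2G29310, AT2G29360 and AT2G29370 the root differences ran between -0.01 and 0.02 in OX7.5 and between -0.21 and 0.30 in WT. The group means of these 4 genes in roots were 0.48 to 1.40, all below the array median, where the size of a change is uncertain.

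**Figure D2:**
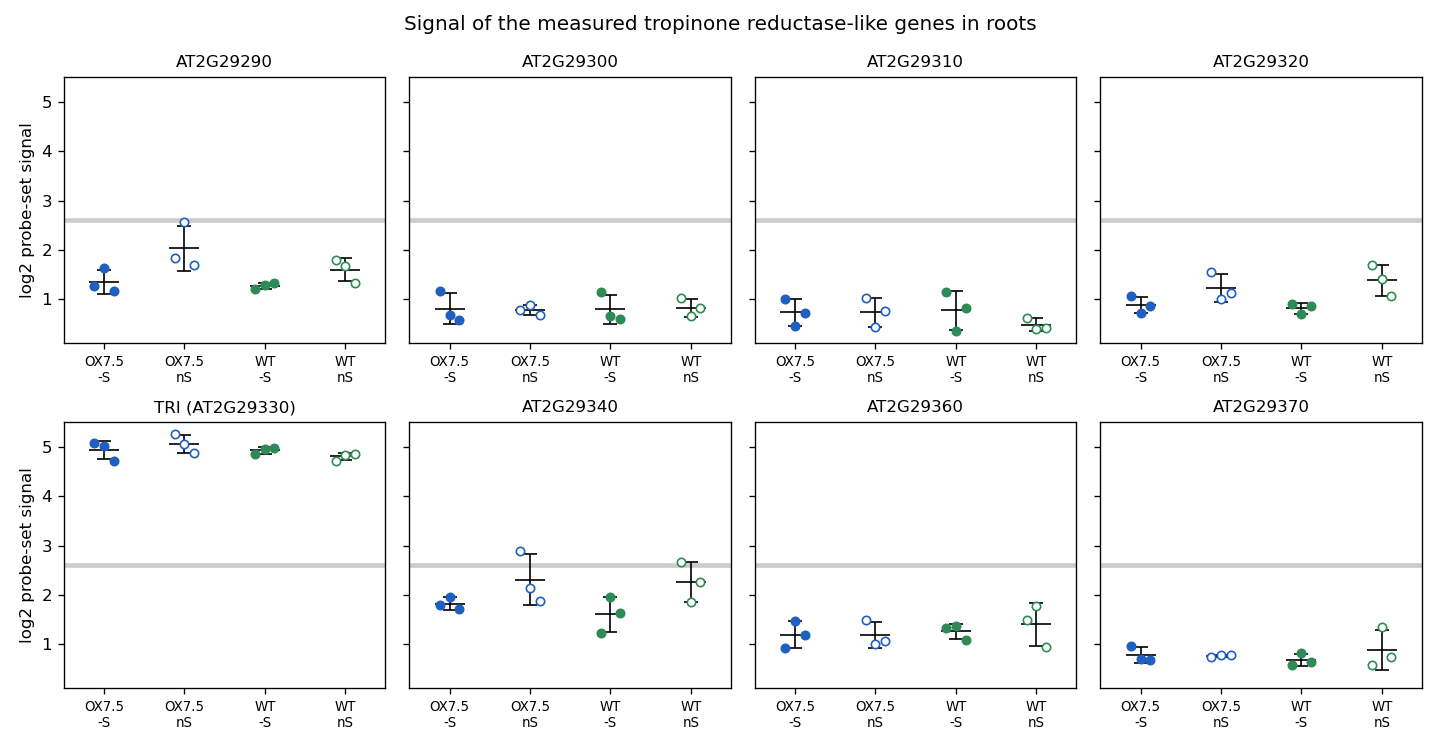
Log2 probe-set signal of the 8 measured genes in roots, drawn as for shoots, with points for arrays (3 per group), the mean, 1 SD and a grey band for the medians of the 12 root arrays. Only TRI lies above the band in every array, and only AT2G29340 crosses it in single nS arrays of each line.

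By the same thresholds 1 of 8 members was lower in OX7.5 roots (AT2G29290) and 1 of 8 in WT roots (AT2G29340), and 0 were higher in either. The background was 7.44% lower and 8.15% higher in OX7.5 roots, and 7.67% lower and 9.57% higher in WT roots. The members' median was -0.07 in OX7.5 roots and -0.18 in WT roots, against -0.02 and -0.06 for all genes. The root response minus the shoot response was largest for AT2G29300 in OX7.5, at 1.91 (standard error 0.38), and for AT2G29310 in WT, at 3.07 (standard error 0.29). For AT2G29340 it was -0.52 in OX7.5 and -0.11 in WT (standard error 0.35), and for AT2G29370 it was 0.18 in OX7.5 and 0.17 in WT (standard error 0.30). These differences carry the shoot values that chose the loci and the dim root signals, and are given without a test.

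Neighbours were compared by the difference of their log2 signals on each array, averaged in each group, so that anything shared by a whole array drops out. There were 7 such pairs of successive measured genes, the pair AT2G29340 and AT2G29360 spanning SAG13. AT2G29320 minus AT2G29310 was 0.20 in OX7.5 shoots and 1.13 in WT shoots (standard error 0.24), so that AT2G29320 had the smaller fall. The next step, TRI minus AT2G29320, was 0.73 in OX7.5 shoots and 0.88 in WT shoots (standard error 0.29). Only the WT steps separated the -S from the nS arrays without overlap.

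The steps between AT2G29290, AT2G29300 and AT2G29310 were not clear beside their errors in shoots, and the -S and nS arrays overlapped in each. AT2G29300 minus AT2G29290 was -0.45 in OX7.5 and -0.67 in WT (standard error 0.40), and AT2G29310 minus AT2G29300 was 0.25 in OX7.5 and -0.25 in WT (standard error 0.37). The order of the strongest members was therefore not settled, and it differed between the lines in the values alone, AT2G29300 being lowest in OX7.5 and AT2G29310 in WT.

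At the other end, AT2G29340 stood apart from TRI by 0.75 in OX7.5 shoots, where the -S and nS arrays did not overlap, and by 0.22 in WT shoots, where they did (standard error 0.27). Across the place of SAG13 the sign turned: AT2G29360 minus AT2G29340 was -0.42 in OX7.5 shoots and -0.67 in WT shoots (standard error 0.27), without overlap in either line. AT2G29370 minus AT2G29360 was 0.22 in OX7.5 shoots and 0.84 in WT shoots (standard error 0.26), without overlap in WT. In these values the response did not decline evenly along the chromosome, since AT2G29340, with the weakest or next weakest response of the cluster in each line, sat between 2 genes with lower values. In WT shoots its step from TRI was smaller than the standard error. TRI and AT2G29370 were dim, above the array median in 0 of 12 shoot arrays, so the size of every shoot step with either gene is uncertain.

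In roots the steps between neighbours ran between -0.36 and 0.70 in OX7.5 and between -0.87 and 0.69 in WT. AT2G29320 minus AT2G29310 was -0.33 in OX7.5 and -0.87 in WT, and AT2G29340 minus TRI was -0.36 in OX7.5 and -0.78 in WT, all without overlap of the arrays. The largest step in OX7.5 was AT2G29300 minus AT2G29290 at 0.70, which was 0.30 in WT. Apart from TRI, these genes lay below the root array median in most or all root arrays, so that the size of the steps is uncertain.

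**Figure D3:**
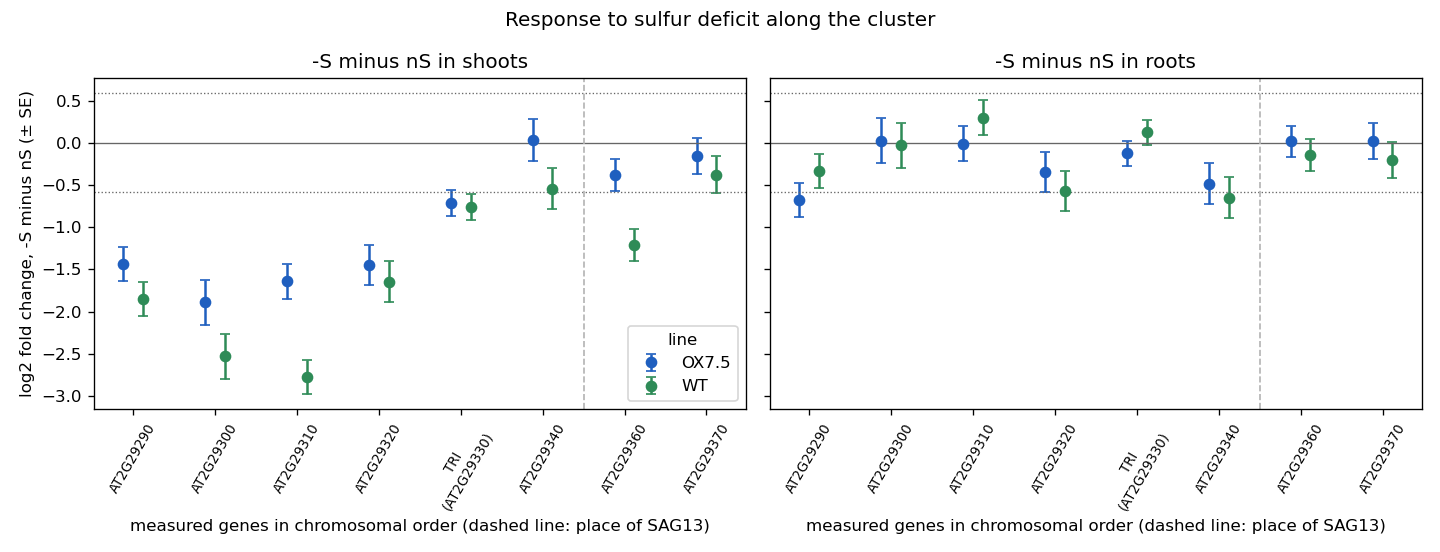
Log2 fold change, -S minus nS, of the 8 measured genes in chromosomal order, shoots on the left and roots on the right, with OX7.5 in blue and WT in green and whiskers of 1 standard error. Dotted lines mark a fold change of 1.5 and the dashed line the place of SAG13, which has no value here. In shoots the points lie lowest from AT2G29290 to AT2G29320 in both lines, and in roots they lie between -0.68 and 0.30.

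The lines were then compared at each sulfur supply, with limma and Benjamini-Hochberg adjustment over all 16552 genes. Each group compared also enters a -S minus nS difference that chose the loci. Signs, intervals and p-values of the members take no account of that choice and do not test a line difference independently of it. In -S shoots the OX7.5 value was above the WT value for 6 of 8 members and for 54.57% of all genes. The median log2 difference was 0.20 for the members, against 0.02 for all genes. AT2G29310 had the largest difference, 0.66 (95% interval 0.24 to 1.09), with OX7.5 arrays between 3.06 and 3.64 and WT arrays between 2.43 and 2.98, without overlap. That held for 1 of 8 members in this direction and for 5.72% of all genes. Its adjusted p was 0.459. Without adjustment 1 of 8 members had a p under 0.05, against 6.14% of all genes, and after adjustment 0 of 8 did, against 0.0785% of all genes.

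In nS shoots the OX7.5 value was below the WT value for 7 of 8 members, the exception being TRI at 0.01. Over all genes it was above the WT value for 49.26%. The median was -0.34 for the members, against -0.004 for all genes. AT2G29360 had a difference of -0.55 (95% interval -0.94 to -0.16, adjusted p = 0.178), with OX7.5 arrays between 5.89 and 6.10 and WT arrays between 6.27 and 6.81. AT2G29310 had -0.47 (95% interval -0.90 to -0.05, adjusted p = 0.371), with OX7.5 arrays between 4.93 and 5.20 and WT arrays between 5.36 and 5.67. In these 2 members the OX7.5 arrays lay wholly below the WT arrays, as in 7.76% of all genes, and both had an unadjusted p under 0.05, as had 10.8% of all genes. None of the 8 was called with limma after adjustment, against 1.70% of all genes. AT2G29340 at -0.41 and AT2G29300 at -0.39 had values of like size with overlapping arrays.

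Among the other members the differences in -S shoots were 0.28 for AT2G29360, 0.25 for AT2G29300, 0.24 for AT2G29290, 0.16 for AT2G29340, 0.06 for TRI, -0.02 for AT2G29320 and -0.07 for AT2G29370. The 95% intervals of the members reached from -0.51 to 1.09 in -S shoots and from -0.94 to 0.33 in nS shoots, and they left out 0 only for AT2G29310 in -S and for AT2G29310 and AT2G29360 in nS.

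The line by sulfur interaction is the -S minus nS difference in OX7.5 less that in WT, and a positive value means a weaker fall or a stronger rise in OX7.5. It was positive in shoots for 8 of 8 members, with a median of 0.50. It was also positive for 53.72% of all genes, and for 1428 (88.09%) of the 1621 genes that were lower in WT shoots by the study's thresholds, and it is the difference of the contrasts that chose the loci, so its values are a description with no p. It was 1.13 for AT2G29310 (standard error 0.29) and 0.83 for AT2G29360 (standard error 0.27). It was 0.64 for AT2G29300, 0.58 for AT2G29340, 0.42 for AT2G29290, 0.22 for AT2G29370, 0.20 for AT2G29320 and 0.05 for TRI. For scale only, limma called 0 of 8 members after adjustment and 2 of 8 at an unadjusted p under 0.05, where 0.538% and 8.94% of all genes were. Such counts, with all arrays or with 1 left out, say only how many values were that large. They do not test the members. The count after adjustment was 1 in 2 cases with 1 array left out, with AT2G29310 at 1.33 without OX7.5 -S shoots replicate 2 and at 1.24 without WT nS shoots replicate 2. The positive sign of AT2G29320 turned without OX7.5 -S shoots replicate 3, where its value was -0.18.

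**Figure D4:**
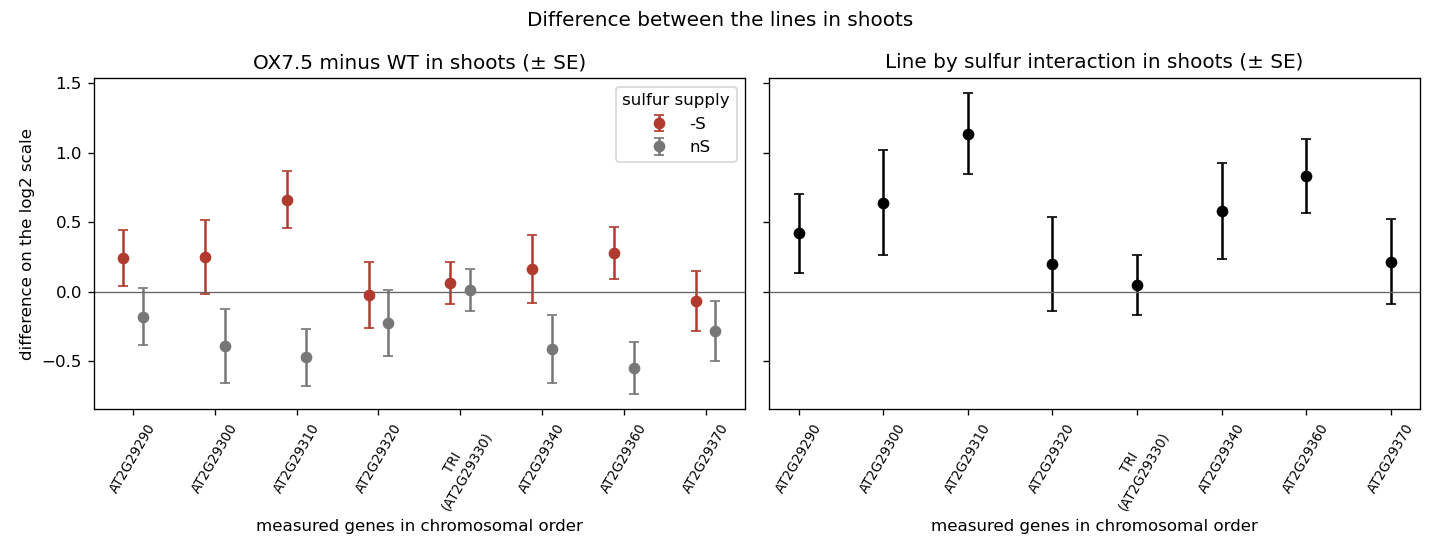
Differences between the lines in shoots for the 8 measured genes in chromosomal order. The left panel gives OX7.5 minus WT with whiskers of 1 standard error, in -S (red) and nS (grey), and the right panel the line by sulfur interaction, also with whiskers of 1 standard error. In -S 6 of 8 points lie above 0 and in nS 7 of 8 lie below it, and the interaction is above 0 for all 8, at 1.13 in AT2G29310 and 0.05 in TRI.

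In roots the values of the lines lay closer together. Apart from TRI, though, these genes lay below the root array median in most or all root arrays, so the size of a line difference there is uncertain. OX7.5 minus WT ran between -0.06 and 0.21 in -S roots and between -0.22 and 0.43 in nS roots. The 95% intervals reached from -0.54 to 0.72 in -S roots and from -0.65 to 0.85 in nS roots. The interaction in roots, like that in shoots, is the difference of contrasts that chose the loci, so its counts are for scale only and do not test the members. With limma 0 of 8 members were called in -S roots, in nS roots or in the interaction, where 0.00%, 0.852% and 0.0604% of all genes were. At an unadjusted p under 0.05 there were 0 in -S roots, 1 in nS roots (AT2G29290 at 0.43, adjusted p = 0.341) and 0 in the interaction, where 3.82%, 13.9% and 9.64% of all genes were. TRI in nS roots was 0.26 higher in OX7.5 (adjusted p = 0.485), with OX7.5 arrays between 4.88 and 5.26 and WT arrays between 4.72 and 4.86.

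Other tropinone reductase-like genes lie outside the cluster, and 7 of the 7 listed were measured. The list was chosen with earlier results of these data known, and the p-values take no account of that choice. By the study's thresholds 2 of them were lower in OX7.5 shoots, and in WT shoots 3 were lower and 1 higher, where 6.10% of all genes were lower in OX7.5, and 9.79% lower and 8.91% higher in WT. In roots 1 was higher in OX7.5 and 2 in WT, beside 8.15% and 9.57% of all genes, and 0 were lower. AT1G07440, one of a pair of such genes on chromosome 1, averaged 3.71 ± 0.31 in OX7.5 -S shoots and 4.40 ± 0.21 in OX7.5 nS shoots, and 3.39 ± 0.06 in WT -S shoots and 4.48 ± 0.21 in WT nS shoots (SD, n = 3 each). It fell by 0.69 in OX7.5 (adjusted p = 0.00398) and by 1.09 in WT (adjusted p = 1.38e-05), with no overlap of its arrays in either line. Its neighbour AT1G07450 fell by 0.51 in OX7.5 (adjusted p = 0.0183, below the fold threshold) and by 0.96 in WT (adjusted p = 2.29e-05). AT5G06060 had -0.47 in OX7.5 shoots (adjusted p = 0.056) and fell by 0.59 in WT shoots (adjusted p = 0.00925). AT2G29260, separated from the first locus of the cluster by few genes, had -0.59 in OX7.5 shoots (adjusted p = 0.0307) and -0.37 in WT shoots (adjusted p = 0.161). Some of these calls, taken here at an adjusted p under 0.05, rested on single arrays, in fits added after the data were seen. The OX7.5 call of AT1G07450 was lost without -S replicate 2 (-0.51), -S replicate 3 (-0.33) or nS replicate 1 (-0.42), that of AT2G29260 without -S replicate 1 or 2 or nS replicate 2 or 3 (-0.50 to -0.57), and the WT call of AT5G06060 without -S replicate 2 (-0.49) or nS replicate 1 (-0.47). The OX7.5 value of AT5G06060 was called at -0.61 without -S replicate 3.

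AT2G30670, a further relative on chromosome 2, went the other way, and in roots. It had 3.34, 4.61 and 4.65 in OX7.5 -S roots, against 1.51, 1.07 and 1.61 in OX7.5 nS roots, and 4.86, 4.44 and 3.20 in WT -S roots, against 1.50, 1.17 and 1.82 in WT nS roots. The lowest -S array of each line lay well above its highest nS array. It rose by 2.80 in OX7.5 roots (adjusted p = 1.66e-06) and by 2.67 in WT roots (adjusted p = 3.01e-06, standard error 0.35 in each), the nS signals being below the array median, so that the size is uncertain. In shoots AT2G30670 had -0.14 in OX7.5 and 0.75 in WT (adjusted p = 0.132 in WT). AT2G29150, another relative near the cluster, had 0.19 in OX7.5 roots and 0.67 in WT roots, where it is the other relative that passed the study's thresholds (adjusted p = 0.104). With limma 0 of these 7 relatives were called after adjustment in any comparison between the lines or in the interaction, and at an unadjusted p under 0.05 there were 2 in nS shoots, against 10.8% of all genes, 1 in the interaction in shoots, against 8.94%, and 0 elsewhere.

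**Figure D5:**
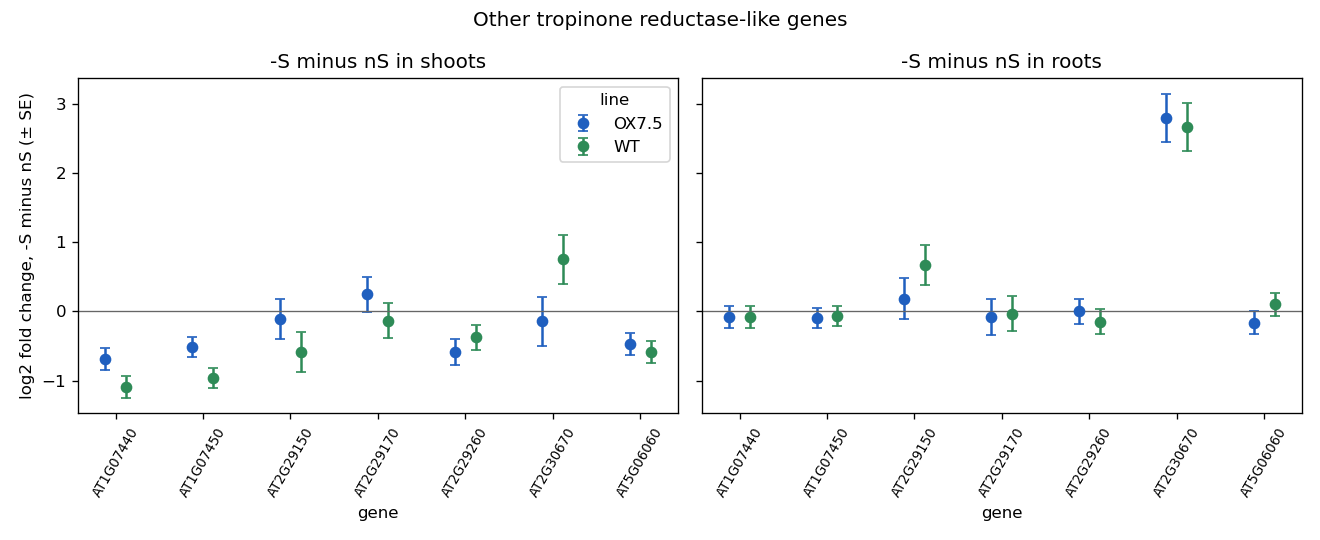
Log2 fold change, -S minus nS, of 7 tropinone reductase-like genes outside the cluster, in shoots on the left and roots on the right, with OX7.5 in blue and WT in green and whiskers of 1 standard error. AT1G07440 and AT1G07450 lie below 0 in shoots of both lines, and AT2G30670 stands at 2.80 in OX7.5 roots and 2.67 in WT roots, apart from the other relatives.

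The nearest measured genes on either side had smaller falls in shoots than the first run of the cluster, or none. They were AT2G29210, AT2G29260 and AT2G29263 before the cluster, the last of which overlaps AT2G29260 in the annotation, and AT2G29430, AT2G29452 and AT2G29500 after it. Their log2 differences ran between -0.59 and 0.48 in OX7.5 shoots and between -0.37 and 1.37 in WT shoots. In OX7.5 shoots AT2G29210 had 0.48 (adjusted p = 0.0333, below the fold threshold), a call that was lost without any 1 of the 6 arrays (0.46 to 0.52), AT2G29260 had the value given above, and AT2G29452 had 0.42 (adjusted p = 0.172), which was called at 0.65 without -S replicate 2. In WT shoots AT2G29452 rose by 1.37 (standard error 0.19, adjusted p = 8.52e-06). There 3 of the 6 had negative values, and by the study's thresholds 0 were lower and 1 higher, against 9.79% and 8.91% of all genes. In OX7.5 shoots 2 of the 6 had negative values. By the same thresholds 1 of them, AT2G29260, was lower and 0 were higher, against 6.10% and 6.14% of all genes. Its fall in OX7.5 shoots was larger than that of the member AT2G29360 (-0.38).

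Likeness of pattern was measured by Pearson's r over the 24 arrays after the mean of each organ was subtracted. These arrays share their groups, and the -S difference in shoots makes up much of the pattern, so r is a description. Within the cluster the best match of AT2G29310 was AT2G29300 and the reverse (r = 0.89), AT2G29310 was the best match of AT2G29290 (r = 0.85) and AT2G29320 (r = 0.85), and AT2G29300 that of TRI (r = 0.86). AT2G29360 was closest to AT2G29320 (r = 0.79), not to either neighbour. AT2G29340 and AT2G29370 had no close match in the cluster, with best values of 0.46 to AT2G29320 and 0.50 to TRI.

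Over all genes outside the cluster, the closest patterns were AT5G51110 for AT2G29290 (r = 0.94), iqd21 for AT2G29300 (r = 0.95), PDF1B for AT2G29310 (r = 0.95), AT2G26500 for AT2G29320 (r = 0.95) and AT2G44640 for TRI (r = 0.91). PDF1B encodes a peptide deformylase and iqd21 an IQ-domain protein. The closest were AT4G19530 for AT2G29360 (r = 0.89), AT3G45200 for AT2G29340 (r = 0.83) and AT1G71970 for AT2G29370 (r = 0.76). A search over so many genes itself raises the highest r, so these values cannot be set against the best matches within the cluster. AT3G45200, AT1G71970 and AT2G29370 had group means below the array medians in both organs.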

How the data were processed

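The authors deposited log2 probe-set values, made per the labels with RMA in Partek; versions are not given in the sources used here. Genes were assigned by the array annotation, with names from the TAIR10.1 gene table. Of the 28583 probe sets in all, 16746 carried 1 gene and 758 several, and with 1 probe set per gene, that of the highest mean (194 dropped), 16552 genes remained, 134 of them without a match in the gene table. No genome build is named for the values, so no coordinates are given. A linear model with one mean for each of 8 groups was fitted to all 24 arrays (16 residual degrees of freedom) with limma 3.58.1 in R 4.3.3, after it was checked on simulated data. A -S DEG met the thresholds of the methods, a 1.5-fold change or more at an unadjusted p under 0.05. Differences between the lines and interactions were called at a Benjamini-Hochberg adjusted p under 0.05. For genes outside the cluster, calls of -S values in fits with 1 array left out also used this adjusted p, without a fold threshold. Neighbours were compared by per-array differences with a spread pooled over groups.

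The members and lists were chosen with earlier results of these data known. Named genes were every member, called genes of the lists (other tropinone reductase-like genes, leaf senescence genes, detoxification genes of the TGA and SCL14 pathway, a tandem of tau glutathione S-transferases, with at most 4 per list by size of change), the 3 nearest measured genes on each side, and the gene most like each member. AT2G29150, AT2G29263, AT2G29430 and AT2G29500 and the uncalled values of named genes are given for completeness. The p-values rest on 3 biological replicates per group and on a spread for each gene that was pooled over the 8 groups of both organs and moderated by limma. Alternatives were another call threshold, fits by organ, a replicate block, a signal-dependent prior, array weights, quantile normalization, leaving out dim probe sets, fitting every probe set, and leaving out each array, the last added for genes outside the cluster after the data were seen. The number of arrays limits the precision.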

Additional observations from a re-analysis of the deposited data

How the results depend on the processing

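No called value turned its sign under the alternatives tried. Counts of called members of the cluster moved in these cases. Those for -S and for the interaction in either organ remain a description. With the other call threshold (adjusted p for -S, fold and unadjusted p for the line comparisons) 1 member was called for OX7.5 minus WT in -S shoots, 2 for the interaction in shoots and 0 for -S in WT roots. Array weights left 0 for -S in WT roots. When dim probe sets were left out, 3 remained called for -S in OX7.5 shoots, since AT2G29300, TRI and AT2G29370 were no longer tested in shoots. AT2G29300 and TRI thereby left the WT shoot count as well. The same filter gave 0 for -S in OX7.5 roots and 0 in WT roots, where only TRI was tested. Leaving out 1 array gave 6 to 8 for -S in WT shoots and 5 in OX7.5 shoots, 0 to 2 in OX7.5 roots, 0 to 2 in WT roots and 0 to 1 for the interaction in shoots. Other causes were not tested.

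Same-numbered replicates of an organ deviated together little or not at all (r of -0.24 to 0.14 for shoots, -0.08 to 0.11 for roots). The median r was 0.07 in shoots, against 0.0003 for other pairs, and -0.003 in roots, against 0.001. Of the arrays, 7 of 12 in shoots and 4 of 12 in roots were most like their own number. The numbers were not read as pairs, and a weak pairing in shoots was not tested. With replicate number as a block, 1 member, AT2G29310, was called for the interaction in shoots, where 104 of all genes were called, against 89 without the block. This count too is for scale only, as the interaction is the difference of the contrasts that chose the loci.

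Single values of AT2G29290, AT2G29340, AT2G29320 and the other members neither changed their call nor turned their sign by more than 1 standard error in 178 of 192 fits without 1 array for -S, in 187 of 192 for the line differences and in 189 of 192 for the interaction.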

Other observations

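SAG13 could not be read, so the other leaf senescence genes give the nearest view of that process, and 2 of the 12 listed were measured. SAG101 (AT5G14930), a lipase-like gene of senescing leaves, averaged 4.82 in OX7.5 -S shoots and 3.90 in OX7.5 nS shoots, and 4.87 in WT -S shoots and 3.97 in WT nS shoots, a rise of 0.92 in OX7.5 (adjusted p = 0.000262) and 0.90 in WT (adjusted p = 0.000162, limma). The sugar transporter gene SWEET15 (AT5G13170), also known as SAG29, had 3.09, 4.68 and 2.67 in OX7.5 -S shoots, against 2.19, 2.31 and 2.33 in OX7.5 nS shoots, and 3.18, 3.28 and 5.53 in WT -S shoots, against 2.10, 2.36 and 2.26 in WT nS shoots. The -S arrays lay above the nS arrays in both lines, with 1 -S array of each line far above the others. The difference was 1.20 in OX7.5 (adjusted p = 0.0585) and 1.76 in WT (adjusted p = 0.00295). Both values passed the study's thresholds, which use an unadjusted p. For SWEET15 (AT5G13170) fits added after the data were seen gave 0.60 in OX7.5 without -S replicate 2 and 1.61 (adjusted p = 0.0163) without -S replicate 3, and in WT 0.99 (adjusted p = 0.033) without -S replicate 3. In the same arrays the first run of cluster members was lower in -S. With 2 genes measured, nothing is said of the list as a whole.

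Of the 14 detoxification genes listed for the TGA and SCL14 pathway, 2 were measured. This list, like that of the senescence genes, was chosen with earlier results of these data known. The p-values of both take no account of that choice. GSTU25 (AT1G17180), a glutathione S-transferase gene, rose in roots by 6.27 in OX7.5 (adjusted p = 4.51e-16) and by 6.24 in WT (adjusted p = 5.65e-16), and in shoots had 0.04 in OX7.5 and 0.25 in WT. The glycosyltransferase gene AT2G15490 rose in roots by 4.21 in OX7.5 and by 3.31 in WT, and in shoots it had 0.62 in OX7.5 (adjusted p = 0.176) and rose by 1.20 in WT (adjusted p = 0.0032), or by 0.76 without WT -S replicate 2. The nS root signals of both genes averaged 1.21 to 1.61, below the root array median, so that the size of their rise there is uncertain. In OX7.5 shoots the value of AT2G15490 passed the study's thresholds, which use an unadjusted p. Without -S replicate 3 it was 0.94, with an adjusted p of 0.0373 (limma). None of the 7 tau glutathione S-transferase genes in tandem after the cluster had a probe set of its own.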
